A study of Drosophila melanogaster with 2 samples.

Results

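Small nucleolar RNA (snoRNA) genes, and the genes that carry them in their introns, were examined for peaks of eGFP-tagged CG11398 in whole Drosophila melanogaster embryos. The members were all genes of biotype snoRNA in the dm6 annotation (Ensembl 115), which were 269 of the 18164 annotated genes on the 6 chromosome arms used (X, both arms of chromosomes 2 and 3, and chromosome 4), and 16 of the 269 are named as small Cajal body RNAs (scaRNAs). The study has 1 group of 2 biological replicates, numbered 3 and 1 in the labels, and no second condition. Each replicate was chromatin from mixed-sex embryos collected over 0 to 24 hours from a transgenic line that stably expresses CG11398 with GFP at its C-terminus. The labels name no mutation of the native CG11398 gene and no promoter for the transgene. They describe immunoprecipitation with an antibody against GFP, although their antibody field names CG11398, and they give sonicated fragments of 200 to 800. Whole embryos hold many cell types, so a peak is an average over all of them. The data were lists of bound regions with a summit (the position of strongest enrichment) and a signal per region, both the authors' own values: 2712 thresholded peaks from both replicates, and relaxed lists of 30000 regions each for the pooled data, replicate 3 and replicate 1. The lists carry no read counts, so read depth is unknown.

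A snoRNA guides the chemical modification of another RNA, chiefly ribosomal RNA, by base pairing. Box C/D snoRNAs carry the C box and D box near their ends and direct 2′-O-methylation by the methyltransferase fibrillarin. Box H/ACA snoRNAs end in an ACA motif and direct conversion of uridine to pseudouridine by dyskerin, whose fly gene is Nop60B. In flies most snoRNAs have no promoter of their own and are cut out of introns of a host gene, often one for a ribosomal protein, or of the Uhg genes, non-coding RNAs whose introns hold snoRNAs. A peak near such a snoRNA can therefore be measured from the snoRNA start or from the transcription start site (TSS) of its host. A gene was counted as having a peak when a summit lay within 500 bp of an annotated start.

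The sequences of 7 members that had a thresholded peak show both box types. They were read from the Release 6 (dm6) genome on the strand of each gene, and capitals mark TGATGA (C box) in the first 20 bases, CTGA (D box) in the last 20 bases, or ACA starting in the last 8 bases. The first 3 are box C/D RNAs and the other 4 end in ACA.
snoRNA:U49:66Da, chr3L:8601473-8601552, + strand, in RpL14: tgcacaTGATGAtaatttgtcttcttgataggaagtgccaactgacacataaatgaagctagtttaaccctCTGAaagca
snoRNA:Or-CD11a, chr3L:3222475-3222541, − strand, in RpL28: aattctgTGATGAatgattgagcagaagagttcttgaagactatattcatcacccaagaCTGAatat
snoRNA:Me28S-A774b, chr3L:13023580-13023652, + strand, in RpS12: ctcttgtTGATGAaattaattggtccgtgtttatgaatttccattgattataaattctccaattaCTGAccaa
snoRNA:Psi18S-920, chr3L:11822984-11823124, + strand, in RpL10Ab: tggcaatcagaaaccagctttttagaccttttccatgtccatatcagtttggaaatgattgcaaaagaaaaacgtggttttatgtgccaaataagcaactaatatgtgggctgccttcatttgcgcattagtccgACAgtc
snoRNA:Psi18S-1275, chr3R:9778398-9778537, + strand, in RpS29: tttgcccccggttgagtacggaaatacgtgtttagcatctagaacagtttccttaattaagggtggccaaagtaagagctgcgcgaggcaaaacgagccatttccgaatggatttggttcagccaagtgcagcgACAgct
snoRNA:Psi28S-1232, chrX:6743675-6743815, − strand, in RpL17: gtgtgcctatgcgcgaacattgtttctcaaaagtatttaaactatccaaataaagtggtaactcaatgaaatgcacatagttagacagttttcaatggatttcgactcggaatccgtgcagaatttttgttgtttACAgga
snoRNA:Psi18S-301, chr3R:20574906-20575043, + strand, with no host: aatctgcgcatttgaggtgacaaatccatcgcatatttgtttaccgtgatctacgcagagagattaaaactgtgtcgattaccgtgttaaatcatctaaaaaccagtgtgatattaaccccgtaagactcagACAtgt

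The sequence under the summit at the host start is shown for 5 ribosomal protein hosts that have the letters CGATA on either strand within 50 bp of the summit. Each stretch runs from 50 bp before to 50 bp after the summit on the host strand, cut off 20 bp after the host TSS, and capitals mark CGATA (seen as TATCG where it is on the other strand) and the 8-letter TATCGATA, which holds it on both strands and is the site of the factor DREF in fly housekeeping promoters. The peaks of RpL28, RpS12, RpL10Ab and RpS29 lay within 500 bp of a snoRNA start, and that of RpL36A lay 555 bp from one.
RpL28, chr3L:3222965-3223065, − strand, summit 55 bp upstream of the TSS: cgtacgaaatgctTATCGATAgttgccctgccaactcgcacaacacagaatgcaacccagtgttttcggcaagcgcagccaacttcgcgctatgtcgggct
RpS12, chr3L:13023263-13023363, + strand, summit 39 bp upstream: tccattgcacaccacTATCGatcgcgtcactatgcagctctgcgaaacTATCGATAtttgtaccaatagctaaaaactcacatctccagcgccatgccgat
RpL10Ab, chr3L:11822767-11822867, + strand, summit 34 bp upstream: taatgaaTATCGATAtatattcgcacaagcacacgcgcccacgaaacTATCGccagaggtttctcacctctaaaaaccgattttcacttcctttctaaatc
RpL36A, chr2L:8042889-8042955, − strand, summit 4 bp downstream: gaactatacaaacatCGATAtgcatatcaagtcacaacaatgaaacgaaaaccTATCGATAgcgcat
RpS29, chr3R:9777962-9778062, + strand, summit 30 bp upstream: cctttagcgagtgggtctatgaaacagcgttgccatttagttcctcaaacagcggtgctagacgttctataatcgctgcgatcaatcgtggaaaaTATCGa

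A thresholded summit lay within 500 bp of the start of 13 of the 269 snoRNA genes, or 4.83% (95% interval 2.60 to 8.12%, exact Clopper-Pearson), while 10.6% of all annotated genes had one within 500 bp of a TSS. These 13 genes shared 12 peaks. A relaxed summit lay near 105 snoRNA genes, or 39.0% (33.2 to 45.1%), on 75 distinct regions, against 47.5% of all genes. Among genes with a relaxed summit, 13 of 105 snoRNA genes (12.4%, 6.76 to 20.2%) also had a thresholded one, against 22.2% of all such genes. The intervals cover counting error alone, and snoRNA genes that share a host or a region are not independent of each other. With 1 group there was no comparison between conditions and no p-value was computed.

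The hosts stood above the background. Of the 269 snoRNA genes, 247 (91.8%) lay within a gene on the same strand, and these 247 were in 92 host genes. A thresholded summit lay within 500 bp of a TSS of 39 of the 92 hosts (42.4%, 32.2 to 53.1%). The background was 10.8% of the 17122 genes that carry no snoRNA and are not themselves snoRNA, snRNA, tRNA, rRNA or microRNA genes. These are called other long genes from here on, although no length was required. Their spans start at 18 bp and non-coding genes are included, so they are not matched to the hosts. Relaxed summits lay at 77 hosts (83.7%, 74.5 to 90.6%), against 48.0% of other long genes. Among genes with a relaxed summit, 39 of 77 hosts (50.6%, 39.0 to 62.2%) had a thresholded one, against 22.5% of other long genes. Hosts had a median of 1 annotated TSS (upper quartile 2, highest 7), and so did other long genes (upper quartile 1, highest 16), and hosts spanned a median of 3562 bp against 1761 bp.

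**Figure D1:**
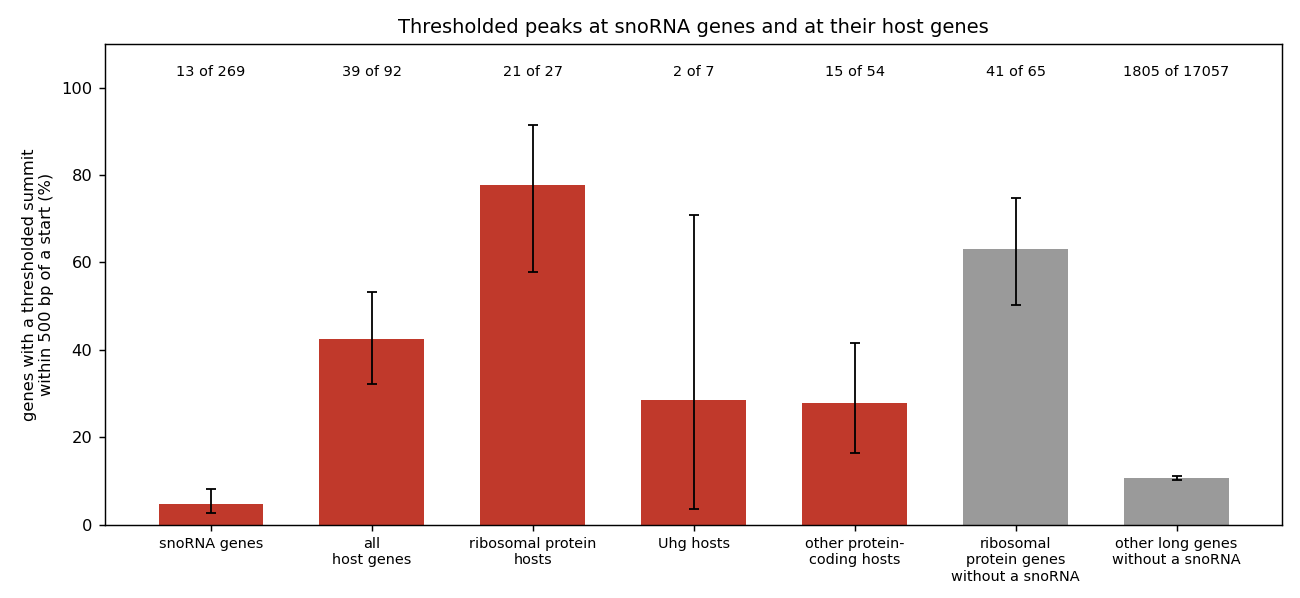
Percentage of genes (y axis) with a thresholded summit within 500 bp of an annotated start, for snoRNA genes and their hosts (red) and for genes without a snoRNA (grey), with exact 95% binomial intervals as error bars and counts above the bars. snoRNA genes stand at 4.83% and hosts at 42.4%, and among hosts the ribosomal protein genes stand at 77.8%.

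All 9 hosted snoRNA genes with a thresholded peak had it at the host TSS. Their summits lay 5 to 77 bp upstream of the nearest host TSS, with a median of 39 bp, and 119 to 489 bp upstream of the snoRNA start. The next counts are of snoRNA genes, each with its strongest summit within 500 bp. A shared summit thus counts more than once, and weaker summits are left out. The strongest thresholded summit lay inside the snoRNA gene itself for none of the 13, and the strongest relaxed one for 10 of the 105. It lay upstream of the snoRNA start for 60 of the 105. For 26 of the 90 hosted snoRNA genes with a relaxed summit, the strongest was within 500 bp of a host TSS. For the other 64 it was farther from one. The 75 distinct relaxed regions near snoRNA genes, those with a thresholded peak included, had a median signal of 37.3, against 33.6 over all 30000 pooled regions.

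**Figure D2:**
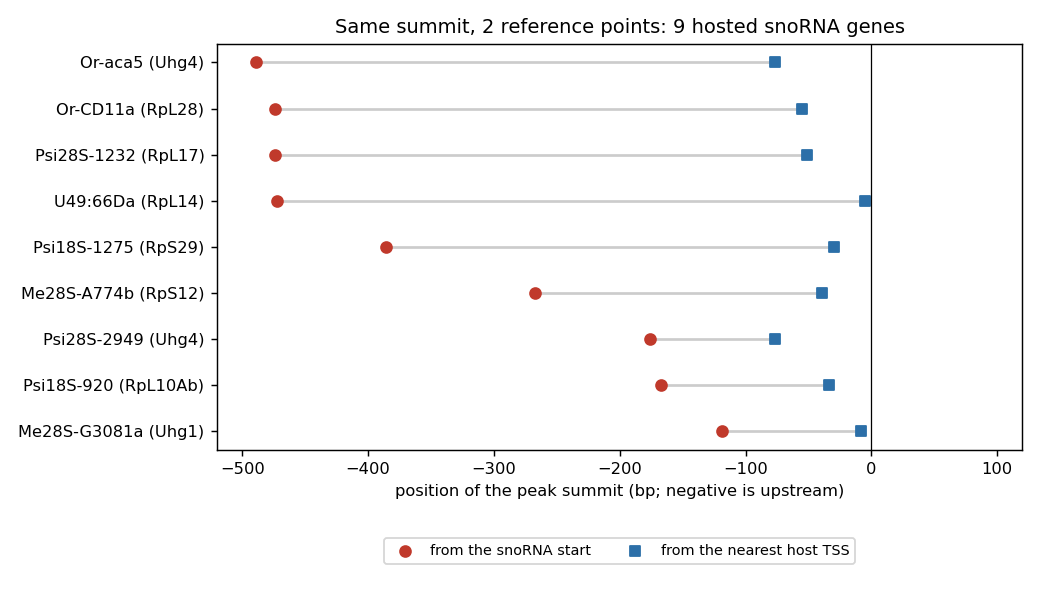
Position of the thresholded summit in bp (x axis, negative is upstream) for each of 9 hosted snoRNA genes, measured from the snoRNA start (red circles) and from the nearest host TSS (blue squares), with the host in brackets. Every square lies between −77 and −5 bp, while the circles spread from −489 to −119 bp.

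The hosted snoRNA genes with a thresholded peak were among those that start close to a host TSS. Of the 35 hosted snoRNA genes that start within 500 bp of a host TSS, 9 (25.7%, 12.5 to 43.3%) had a thresholded summit within 500 bp. Of the 126 that start over 500 and up to 2000 bp away, and of the 86 farther than that, none had one (upper limits 2.89% and 4.20%). A thresholded peak lay at some TSS of the host for 20 of the 35, 59 of the 126 and 28 of the 86. In hosts with several TSSs that one need not be the TSS nearest the snoRNA, as at eEF1alpha1 and drn. In total 107 of the 247 hosted snoRNA genes (43.3%) sat in a host with a thresholded peak at any of its TSSs. Of these 107, 98 started more than 500 bp from that summit. Relaxed summits showed the same order, near 25 of 35, 45 of 126 and 20 of 86 snoRNA genes. The count at the snoRNA genes depended on the window. With 200 bp it was 5 of 269, and with 1000 bp it was 42 of 269, of which 36 had the peak within 1000 bp of the host TSS. The shares of other long genes with these windows were 7.65% and 13.0%. With 1000 bp the snoRNA genes were thus not below that background.

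**Figure D3:**
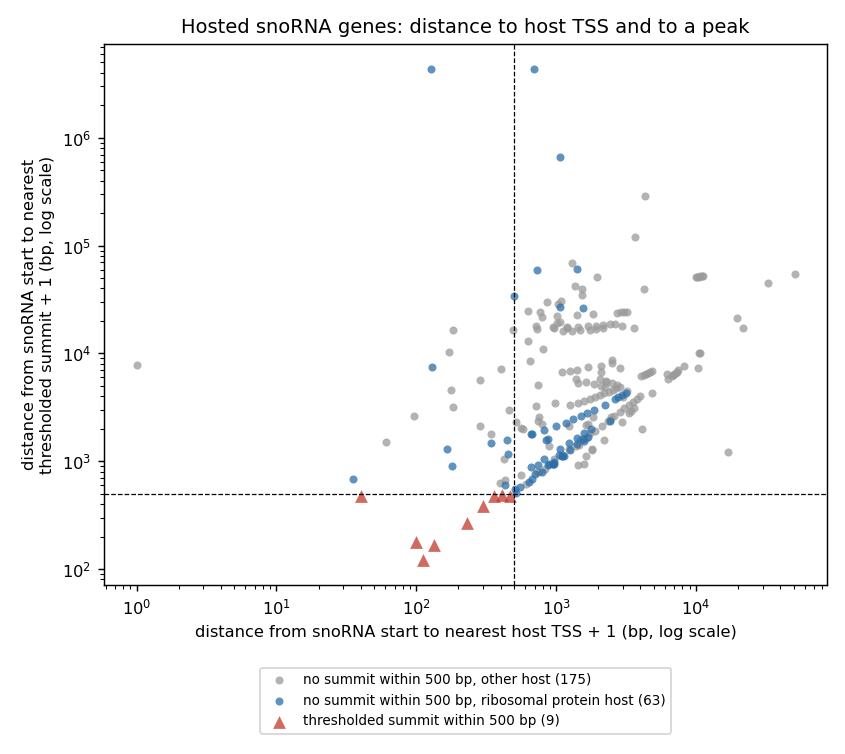
Distance from each hosted snoRNA start to the nearest host TSS (x axis) and to the nearest thresholded summit (y axis), both in bp plus 1 on log scales, with dashed lines at 500 bp. The 9 snoRNA genes with a peak (red triangles) sit in the lower left corner, and a band of ribosomal protein hosted genes (blue) runs up the diagonal, where the distance to the summit about equals the distance to the TSS.

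Methylation guides of box C/D, named Me for the modified base, were 77 of the members, with a median length of 79 bp. Both the C and D box letters were found in 59 of them and ACA in 4. A thresholded peak lay near 2 of the 77 and a relaxed region near 23. snoRNA:Me28S-A774b, named for an adenosine of 28S ribosomal RNA and carried by RpS12, had its summit 267 bp upstream of its start and 39 bp upstream of the RpS12 TSS, with a signal of 164.0 in the thresholded list, 88.8 in replicate 3 and 74.8 in replicate 1. snoRNA:Me28S-G3081a, at chr2R:17699208-17699276 and the snoRNA gene nearest the start of Uhg1, had its summit 119 bp upstream of its start and 8 bp upstream of the Uhg1 TSS, with a signal of 98.9, 59.6 in replicate 3 and 42.6 in replicate 1. Both signals were thus higher in replicate 3. The members placed under other names included snoRNA:U49:66Da in RpL14, a box C/D RNA by its letters, which had the strongest peak of all members. Its signal was 442.8, rank 63 of the 2712 thresholded peaks, with 188.1 in replicate 3 and 258.2 in replicate 1. That summit lay 472 bp upstream of the snoRNA start, 5 bp upstream of the RpL14 TSS and 122 bp upstream of the TSS of Nelf-E, a subunit of the complex that holds RNA polymerase II in pausing, on the other strand.

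Pseudouridylation guides, named Psi, were 106 of the members, with a median length of 140 bp. ACA in the last 8 bases was found in 103 and the C and D box pair in none. A thresholded peak lay near 5 of the 106 and a relaxed region near 41. snoRNA:Psi28S-2949 (chr2R:9095372-9095526) is the first snoRNA of Uhg4, and its peak also served the next one, the orphan snoRNA:Or-aca5. The signal was 254.2, with 136.5 in replicate 3 and 117.9 in replicate 1, and the summit lay 176 bp upstream of snoRNA:Psi28S-2949, 489 bp upstream of snoRNA:Or-aca5 and 77 bp upstream of the Uhg4 TSS. At snoRNA:Psi28S-1232 in RpL17 the signal was 150.8, with 60.3 in replicate 3 and 93.1 in replicate 1, and the summit lay 51 bp upstream of the RpL17 TSS and 474 bp upstream of the snoRNA start. A phenylalanine tRNA gene, tRNA:Phe-GAA-1-2, starts 254 bp from the same summit. At snoRNA:Psi18S-1275 in RpS29 the signal was 136.8, with 59.1 in replicate 3 and 71.9 in replicate 1, and the summit lay 30 bp upstream of the RpS29 TSS. At snoRNA:Psi18S-920 in RpL10Ab the signal was 80.7, with 46.6 in replicate 3 and 34.4 in replicate 1, close to the lowest signal in the thresholded list (79.8), and the summit lay 34 bp upstream of the RpL10Ab TSS.

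snoRNA:Psi18S-301 was the one pseudouridylation guide of the 5 without a host. Its summit lay 4 bp upstream of its own start, the closest of the 13, and no gene outside the snoRNA biotype had a TSS within 500 bp. Its signal was 80.7, rank 2665 of 2712, with 26.1 in replicate 3 and 44.1 in replicate 1, so the peak was among the weakest of the list and stood lower in replicate 3. When the same number of regions was taken from the top of either replicate's own list instead, neither set had a summit within 500 bp of this snoRNA start.

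The other hostless members with a thresholded peak were 3 of the 22 snoRNA genes that have no same-strand host, which makes 4 of 22 (18.2%, 5.19 to 40.3%) against 9 of the 247 hosted ones (3.64%, 1.68 to 6.80%), intervals that overlap. snoRNA:Or-ACA6 (chr2R:10081188-10081325), an H/ACA RNA with no known target, lies on the opposite strand of egr, the fly tumour necrosis factor ligand. Its summit was 411 bp upstream, with no TSS of a gene outside the snoRNA biotype within 500 bp. Its signal was 159.1, with 78.6 in replicate 3 and 80.7 in replicate 1, nearly equal. snoRNA:185 (chr2R:19727098-19727152) had a signal of 116.9, with 54.0 in replicate 3 and 66.1 in replicate 1. Its summit lay 105 bp upstream of its start and 274 bp from the start of a glutamate tRNA gene, tRNA:Glu-TTC-1-5. scaRNA:MeU1:95C-A24 (chr2L:901976-902082), named as a guide to U1 small nuclear RNA, had a signal of 82.6, with 42.1 in replicate 3 and 41.7 in replicate 1. Its summit lay 452 bp downstream of its start, beyond its end, and 24 bp downstream of the TSS of snRNA:U1:21D, a U1 gene of the spliceosome. It was the one member of the 13 with a downstream summit.

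Orphan snoRNAs have no known target site. Of the 13 named as orphan C/D RNAs, 1 had a thresholded peak, snoRNA:Or-CD11a in RpL28, and 7 had a relaxed region. Its signal was 278.7, rank 211, with 152.5 in replicate 3 and 134.5 in replicate 1, and its summit lay 474 bp upstream of its start and 55 bp upstream of the nearest RpL28 TSS. The TSS of eIF1, a translation initiation factor gene on the other strand, was 326 bp away. Of the 8 named as orphan H/ACA RNAs, 2 had a thresholded peak (snoRNA:Or-aca5 and snoRNA:Or-ACA6, above) and 6 a relaxed region. Of the 16 scaRNAs, 1 had a thresholded peak and 3 a relaxed region. Of the 49 members under other names, 2 had a thresholded peak and 25 a relaxed region. With so few peaks in a class, the classes cannot be ordered.

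The window edge fell within a dense set of values. Just inside it were snoRNA:U49:66Da at 472 bp, snoRNA:Or-CD11a and snoRNA:Psi28S-1232 at 474 bp each, and snoRNA:Or-aca5 at 489 bp. Just outside were snoRNA:Me18S-C1096 in RpL3 at 501 bp, snoRNA:Psi28S-2648 in RpL36A at 555 bp, snoRNA:Me28S-A2113 in RpL30 at 579 bp and snoRNA:Or-CD13 without a host at 586 bp. The first 3 of these also sit in ribosomal protein hosts with a peak at the TSS.

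Among members with a relaxed region but no thresholded peak, the highest signals came close to the lowest thresholded one. The 3 neighbours snoRNA:2R:9445205, snoRNA:2R:9445410 and snoRNA:Psi28S-1153, which have no host, shared a region with a signal of 75.5, with 37.2 in replicate 3 and 39.6 in replicate 1. snoRNA:Me18S-C1366 and snoRNA:Me28S-C3227a, the first snoRNAs of Uhg5, shared a region with a signal of 74.4, with 28.0 in replicate 3 and 41.7 in replicate 1, whose summit lay 62 bp downstream of the Uhg5 TSS. The relaxed signals of all 92 such members ran from 23.0 to 75.5 with a median of 31.3. In the replicates' own relaxed lists, 89 snoRNA genes had a summit within 500 bp in replicate 3 and 105 in replicate 1. Of the 269 snoRNA genes, 63 had one in both and 138 in neither. The same counts over all genes are not given, so these 4 have no background beside them.

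Ribosomal protein genes had the highest share of peaks among the host classes of more than 1 gene. They were 27 of the 92 hosts, by symbol, and carried 69 of the 247 hosted snoRNA genes. A thresholded peak lay at 21 of the 27 (77.8%, 57.7 to 91.4%), and at 41 of the 65 ribosomal protein genes that carry no snoRNA (63.1%, 50.2 to 74.7%), paralogues included, so the 2 intervals overlap widely. The strongest after RpL14 was RpL30, with a signal of 304.3 and with 152.5 in replicate 3 and 151.7 in replicate 1, its summit 25 bp upstream of the TSS. RpS20 followed with 281.6, then RpL28 with 278.7, RpL13A with 274.7 and RpL22 with 271.2, all genes of the large subunit but RpS20. RpL11 had 238.4 with its summit 1 bp upstream of the TSS, RpS16 had 196.6, RpS4 had 190.2, RpL4 had 184.2 and RpS5a had 168.8. RpS12 had 164.0, RpS3A had 157.6, RpL17 had 150.8, RpL27A had 138.0 and RpS29 had 136.8. Among the ribosomal protein hosts without a thresholded peak, RpS6 and RpS9 had relaxed regions with signals of 66.6 and 45.6. RpL15 and RpL5 had no relaxed region within 500 bp of a TSS. The nearest thresholded summit was 4388472 bp away for snoRNA:Me18S-G1358c in RpL15 and 668133 bp away for snoRNA:Psi28S-2996 in RpL5. Both hosts lie beyond the last thresholded peak of their arm, which ended at 22879079 on 3L and 21867535 on 2L. RpL15, from chr3L:27267255, also lies beyond the last pooled relaxed region, which ended at 24538215. The lack of a thresholded peak at both hosts therefore cannot be set beside that of hosts in stretches the thresholded list covers. On 2L the last pooled relaxed region ended at 22534467, inside RpL5. The relaxed list of replicate 3 ran past both hosts, to 27986270 on 3L and 23313364 on 2L.

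The summits at ribosomal protein hosts sat close to the TSS. The median position was 25 bp upstream, with 20 of 21 within 100 bp of the TSS, the exception being RpS20 at 176 bp upstream. At the other hosts the median was 64 bp upstream, with 11 of 18 within 100 bp. Over the 1846 other long genes with a peak the median was 99 bp upstream, with 737 (39.9%) within 100 bp. Of all 39 host summits, 30 were upstream of the TSS, 31 were within 100 bp of it and the median position was 34 bp upstream. The host peaks had a median signal of 157.6 (lowest 80.7, highest 525.8), against 115.1 over all thresholded peaks. That median was 168.8 for ribosomal protein hosts and 125.8 for other hosts.

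Hosts that do not encode a ribosomal protein by symbol had a peak at 18 of 65 (27.7%, 17.3 to 40.2%), against 10.6% of the other long genes outside the ribosomal protein set. Given a relaxed region, it was 18 of 52 (34.6%, 22.0 to 49.1%) against 22.1%, which lies just inside that interval. One of the 18 is sta, which encodes ribosomal protein SA of the small subunit although its symbol does not show it. Among the 7 Uhg hosts, which carry 48 snoRNA genes and code for no protein, Uhg4 (254.2) and Uhg1 (98.9) had a thresholded peak. Uhg5 (74.4), Uhg2 (68.2), Uhg3 (59.1) and Uhg8 (39.2) had a relaxed region with the signals given, and Uhg7 had none. The 1 translation factor host, eEF1alpha1, which delivers aminoacyl-tRNA to the ribosome, had a signal of 178.2, with 90.7 in replicate 3 and 83.4 in replicate 1, and its summit 51 bp upstream of the TSS. None of the 3 other non-coding hosts had a thresholded peak, which with 3 genes allows a share of up to 70.8%.

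The other protein-coding hosts had a peak at 15 of 54 (27.8%, 16.5 to 41.6%) and carried 122 snoRNA genes. The strongest peak at any host was at Stt3A, a catalytic subunit of the oligosaccharyltransferase that glycosylates proteins, with a signal of 525.8 and with 236.1 in replicate 3 and 290.6 in replicate 1. Its summit lay 403 bp upstream of the Stt3A TSS and nearer, at 206 bp upstream, to that of bves on the other strand. CG1142 had a signal of 332.6 with its summit 186 bp upstream, and CG12316 had 261.0 with its summit 78 bp downstream. The long genes Msp300, a giant nesprin-like protein of the nuclear envelope, and Dys, the fly dystrophin, had signals of 259.7 and 153.3 with summits 343 and 255 bp upstream of a TSS. The transcription factor gene lola had 197.8 with its summit 474 bp upstream of a TSS, and mask had 135.2.

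Some host peaks also lay near the start of another gene. The same count was not made for other long genes with a peak, so whether hosts differ in this is not known. Leaving snoRNA genes aside, the summit at 16 of the 39 hosts was also within 500 bp of the TSS of another gene. At 5 (RpL22, RpS20, Stt3A, anchor and dmt) the other TSS was nearer than the host's. Of the 5, 2 were ribosomal protein hosts. At these places the lists do not tell which gene the peak belongs to. At 8 of the 39 hosts a snoRNA start lay within 500 bp of the summit.

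**Figure D4:**
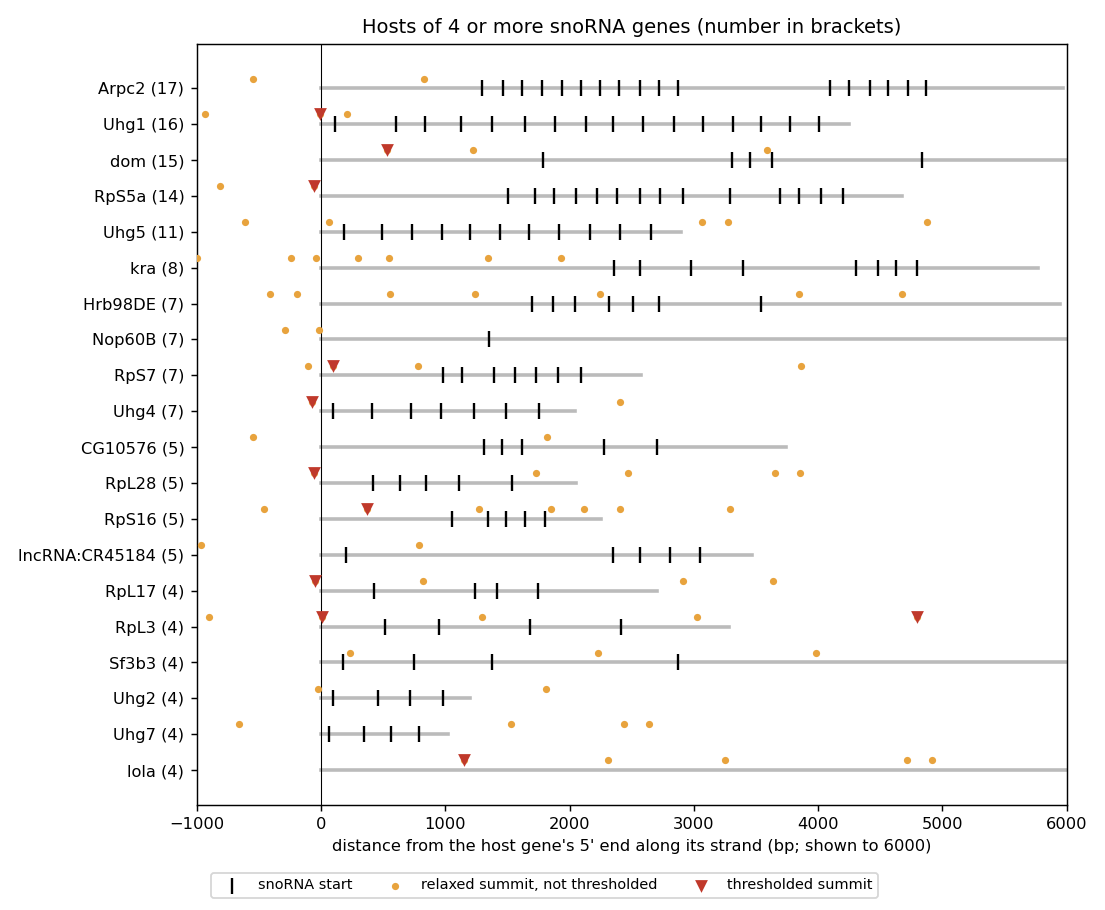
Hosts of 4 or more snoRNA genes, drawn along the host strand from 1000 bp before to 6000 bp after the host 5′ end (x axis, bp), with snoRNA starts as black ticks, thresholded summits as red triangles and other pooled relaxed summits as orange circles. Thresholded summits at RpS5a, Uhg4, Uhg1, RpL28, RpL17 and RpL3 stand at the 5′ end while the snoRNA starts run on through the gene without one.

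The share of peaks did not rise steadily with the number of snoRNAs carried, and the intervals were too wide to order the groups. A peak lay at 21 of the 55 hosts of 1 snoRNA (38.2%, 25.4 to 52.3%), at 9 of the 17 hosts of 2 or 3 (52.9%, 27.8 to 77.0%) and at 9 of the 20 hosts of 4 or more (45.0%, 23.1 to 68.5%), with overlapping intervals. The 20 hosts of 4 or more carried 153 snoRNA genes. Arpc2, a subunit of the actin-nucleating Arp2/3 complex, carried the most, 17 copies of 2 pseudouridylation guides, and had no relaxed summit within 500 bp of its TSS. Uhg1 carried 16. The chromatin remodeller gene dom carried 15 and had no summit within 500 bp of its TSS, although a thresholded one with a signal of 85.9 lay 526 bp downstream of its 5′ end, just outside the window. RpS5a carried 14 and had its peak 59 bp upstream of the TSS.

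The remaining hosts of 4 or more were of both kinds. RpS7 carried 7 and had a signal of 104.5, RpL3 carried 4 and had 120.6, and Uhg4 with 7, RpL28 and RpS16 with 5 each, and RpL17 and lola with 4 each had the peaks given above. Relaxed regions without a thresholded peak lay at Uhg5 (11 snoRNA genes), kra (8, signal 59.1), Nop60B (7, signal 40.7), Hrb98DE (7, signal 45.4), lncRNA:CR45184 (5, signal 26.0), Sf3b3 (4, signal 48.8) and Uhg2 (4). CG10576 (5) and Uhg7 (4) had no relaxed region within 500 bp of a TSS. In sum 15 hosts had no relaxed region at a TSS, and they carried 53 of the 247 hosted snoRNA genes.

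Signals of the 2 replicates were close at most of these peaks. The thresholded list was itself selected for reproducibility between the replicates, so part of this closeness was built in. The log2 ratio of signal in replicate 3 over replicate 1, as deposited, had a median of −0.01 over the 12 peaks near snoRNA genes, with a range of −0.76 at snoRNA:Psi18S-301 to 0.48 at snoRNA:Me28S-G3081a. Over the 39 host peaks the median was −0.12, with a range of −1.09 at Fib to 0.67 at dmt. Over all 2712 thresholded peaks the median was −0.18 with an SD of 0.51, and none of the 39 host peaks was more than 2 SD from that median.

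**Figure D5:**
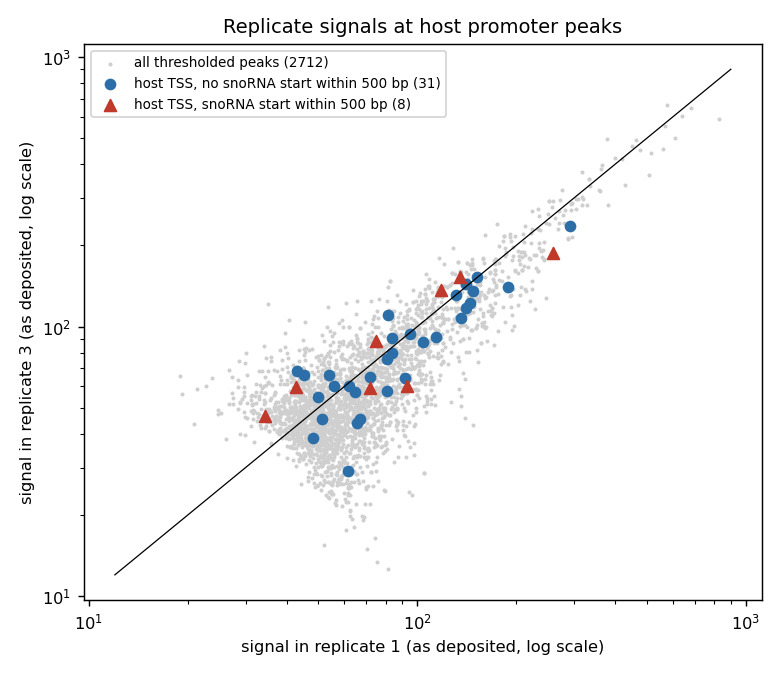
Signal in replicate 3 (y axis) against replicate 1 (x axis), as deposited and on log scales, for all 2712 thresholded peaks (grey), for peaks at host TSSs with a snoRNA start within 500 bp (red triangles, 8) and for the other host peaks (blue, 31), with the line of equal signal in black. Host peaks lie within the cloud of all peaks at every strength, from 80.7 at RpL10Ab to 525.8 at Stt3A in the thresholded list.

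Protein genes of the snoRNA particles and of their assembly were a separate list of 15 (the snoRNA particle list). Of these, 13 were found in the annotation by symbol or synonym. A thresholded peak lay at 4 of the 13 and a relaxed region at all 13, beside the 10.6% and 47.5% of all genes given above. Nopp140, a nucleolar chaperone of snoRNA particles, had a signal of 97.0, with 49.2 in replicate 3 and 50.1 in replicate 1 and its summit 42 bp upstream of the TSS. Fib, the methyltransferase fibrillarin of box C/D particles and itself a host of 1 snoRNA, had 96.9, with 29.0 in replicate 3 and 61.6 in replicate 1, the largest ratio between replicates among host peaks. The paired helicases of particle assembly, rept and pont, had 87.2 and 80.0, with summits 69 and 14 bp upstream of the TSS. All 4 signals were below the median of 115.1 over all thresholded peaks. The other 9 had relaxed signals of 34.0 to 62.1. Among them were Nop56 (48.2) and nop5 (54.7), the scaffold proteins of box C/D particles, hoip (52.7), their RNA-binding protein, and Nop60B (40.7), NHP2 (62.1), Nop10 (56.2) and Gar1 (34.0), which form the box H/ACA particle. Nufip, an assembly factor, had 55.7 and U3-55K, a protein of the U3 particle, had 34.0.

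Both strands were searched for 5 short sites up to 50 bp from each summit. Of these, TATCGATA was found at 4 of the 39 host peaks (10.3%, 2.87 to 24.2%), which are the RpL28, RpS12, RpL10Ab and RpL36A stretches printed above, and at 57 of all 2712 thresholded peaks (2.10%). Its shorter form CGATA, which every TATCGATA contains, was found at 13 host peaks (33.3%, 19.1 to 50.2%) and at 16.2% of all peaks. TGTTTAC was found at 2 host peaks (Stt3A and hts) and at 5.38% of all peaks, GTCACACT at 1 (RpL27A) and at 1.33%, and TATAAA at 3 and at 14.3%. Every host peak is within 500 bp of a TSS by definition, whereas all thresholded peaks were taken wherever they lie. The shares therefore set promoter peaks beside a mixed set, and promoter peaks of other genes were not counted. CTTT on the sense strand within 5 bp of a TSS, the pyrimidine-rich start of many translation-related genes, was found at 14 of the 92 hosts (15.2%, 8.58 to 24.2%) and at 5.47% of other long genes, with 6 of the 27 ribosomal protein hosts and 2 of the 7 Uhg hosts (Uhg4 and Uhg5) among them. RpL14 and RpS7 show it at the start, printed from 60 bp upstream to 20 bp downstream of the TSS nearest the summit with CTTT in capitals. These are matches of letters, with no measure of which factor binds them.
RpL14, chr3L:8600946-8601026, + strand: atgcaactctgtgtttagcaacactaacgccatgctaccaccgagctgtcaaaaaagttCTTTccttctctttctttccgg
RpS7, chr3R:30208922-30209002, − strand: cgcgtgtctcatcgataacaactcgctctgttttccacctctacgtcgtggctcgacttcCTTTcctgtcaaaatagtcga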

How the data were processed

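Chromatin immunoprecipitation and sequencing was analysed in 2 biological replicates of 1 group. The signal of a region is the value deposited by the authors, and no source used here states a normalization. The deposited notes say that alignments of 1 replicate, with a control, gave its relaxed list, that data of both gave the pooled one, and that thresholded peaks are an optimal set by irreproducible discovery rate (IDR). Which aligner and peak caller were used, with which settings, is not given in the sources used here, and how reads from near-identical snoRNA copies were placed is not known. Lists on the dm3 build were not used.

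From these lists, summits were set against Ensembl 115 gene starts with Python 3.11.15 (pandas 2.3.3, numpy 2.4.6, scipy 1.17.1), and the main count was checked with bedtools 2.31.1. A host is the shortest same-strand gene that contains the snoRNA. A replicate's signal at a peak is that of its strongest overlapping relaxed region. Where several summits lay in a window, the one of highest signal was used. Assignment of summits was tested on simulated data. Sequences are of the Release 6 genome.

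The members and lists were chosen with earlier results of these data known. Genes named are all snoRNA genes with a thresholded peak, up to 25 hosts with the strongest peaks, and hosts of 4 or more snoRNA genes. Also named are the 5 snoRNA genes with the strongest relaxed regions and no thresholded peak, those at the window edge, and the snoRNA particle list. Other genes named with a value were chosen after their values were seen. Alternatives were other windows, a stronger set of peaks, single replicates and other definitions of the host. Values of some host genes are not reported here.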

Additional observations from a re-analysis of the deposited data

How the results depend on the processing

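Counts at snoRNA genes moved most with the window. With 200 bp, 5 snoRNA genes had a thresholded and 41 a relaxed summit, and 3 of the peaks were at a host TSS. With 1000 bp these counts were 42, 166 and 36. Beside the 5 and the 42 of 269 snoRNA genes, 7.65% and 13.0% of other long genes had a thresholded summit. The snoRNA genes were therefore below that background with 200 bp but not with 1000 bp. Shares over other genes are not given for the relaxed summits with these windows, nor for the next count. With any base of a region within 500 bp, 23 snoRNA genes had a thresholded peak. Hosts varied less: 34 (37.0%, against 7.65% of other long genes) with 200 bp and 45 (48.9%, against 13.0%) with 1000 bp, 28 (30.4%, against 5.65%) among the stronger 50% of peaks, and 35 (38.0%, against 9.40%) with the 5′ end of the gene alone. No member of the snoRNA particle list had a peak among the stronger 50% of peaks (0, against 4 among all thresholded peaks). That set of stronger peaks has no relaxed counts.

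Using 1 replicate's strongest regions, as many as there are thresholded peaks, gave 11 snoRNA genes in either case, 10 shared with the thresholded list without replicate 1 and 9 without replicate 3. scaRNA:MeU1:95C-A24 and snoRNA:Psi18S-301 were lost in both, snoRNA:Psi28S-1232 without replicate 1, and snoRNA:Me28S-G3081a and snoRNA:Psi18S-920 without replicate 3. Hosts ranged over 41 to 42, and the snoRNA particle list over 2 to 3, the 2 being without replicate 1. The count of 9 peaks at a host TSS held in each. Starts of host transcripts that span the snoRNA, chosen after seeing the data, gave 39 hosts again. The causes were not tested. No paired analysis was possible because there is 1 group. Depth is unknown, so its effect on the 164 snoRNA genes without a relaxed summit cannot be judged.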
